A study of Mus musculus with 47 samples.

Results

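The genes described here code for the machinery of synaptic vesicles and transmitter release: vesicle proteins, synaptotagmins, the proteins of membrane fusion (SNAREs), complexins and active zone proteins. They were chosen by name, with earlier results of these data known. They are 38 symbols, each with 1 row in a count table of 48795 genes. All 38 passed the filter on low counts that left 19193 genes for testing. At a nerve terminal, vesicles loaded with transmitter are tethered by synapsins and held at the active zone by large scaffolds such as bassoon and the RIM proteins. Munc13 proteins, the products of the Unc13 genes, prime docked vesicles by helping SNARE proteins of vesicle and plasma membrane to assemble, complexins bind the assembled SNAREs, and synaptotagmins sense calcium and trigger fusion. In striatum, the dominant cells are medium spiny neurons, which release GABA from axons that mostly end in other nuclei, while much of the release onto them comes from cortical, thalamic and dopaminergic axons whose RNA is made in cell bodies elsewhere, so that striatal tissue mainly holds the RNA of the striatal cells themselves.

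The study measured RNA from dissected striatum of C57BL mice aged 6 months, by sequencing of stranded libraries titled mRNA, with 47 libraries (23 from females and 24 from males). The 6 groups were wild type, mice heterozygous for the Q140 knock-in, a Huntington's disease allele with an expanded CAG repeat in the mouse Htt gene, mice heterozygous (Ccdc82+/-) or homozygous (Ccdc82-/-) for a Ccdc82 mutation, and the crosses Q140 Ccdc82+/- and Q140 Ccdc82-/-. Each group held 8 libraries, 4 of each sex, except Q140 Ccdc82-/- with 7 (3 females and 4 males). How the Ccdc82 allele was made is not given in the sources used here. Below, intact Ccdc82 means the wild type and Q140 groups.

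Libraries held 41327333 to 61701245 counts (median 47701604). Levels are given as CPM, counts scaled to a common library total, with TMM factors, and differences as log2 fold changes ± SE from edgeR's quasi-likelihood test over all 47 libraries, with a gene called where the Benjamini-Hochberg adjusted p over all 19193 genes was under 0.05. Ccdc82 itself stood at 10.6 to 12.9 CPM in wild type, 7.70 to 9.19 in Ccdc82+/- and 3.92 to 5.87 in Ccdc82-/- libraries. In the matching Q140 groups it stood at 10.1 to 12.8, 7.27 to 9.99 and 3.67 to 5.35 CPM. All libraries thus followed their Ccdc82 labels, with residual counts in the homozygotes. These values do not check the Q140 or sex labels. Defining genes of medium spiny neurons were abundant in all libraries. Their list was also lower with Q140: 15 of 16 genes fell in each of the 3 Q140 comparisons, where 16.5%, 16.7% and 15.7% of all genes fell, and their summed level was 19105 to 22042 CPM without Q140 and 13176 to 15568 CPM with it. In whole tissue, fewer cells of a type and less RNA per cell cannot be told apart, and the part of this fall in the values below was not tested.

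The stretches just before the start of 6 genes are shown. Syp, Unc13b and Syt9 had no overlap between libraries with and without Q140, Unc13a is the relative of Unc13b that fell, and Syn1 and Bsn each hold a motif found in no other window of these genes. They come from RefSeq, build GRCm38.p6, are written 5′ to 3′ on the gene's strand, hold up to 250 bases before the start, trimmed to bases outside the gene model, and have motif letters in capitals.
Syp, chrX:7638330-7638470, plus strand: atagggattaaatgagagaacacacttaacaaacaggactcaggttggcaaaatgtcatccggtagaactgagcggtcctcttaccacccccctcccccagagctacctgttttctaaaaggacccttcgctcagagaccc
Unc13b, chr4:43058703-43058952, plus strand: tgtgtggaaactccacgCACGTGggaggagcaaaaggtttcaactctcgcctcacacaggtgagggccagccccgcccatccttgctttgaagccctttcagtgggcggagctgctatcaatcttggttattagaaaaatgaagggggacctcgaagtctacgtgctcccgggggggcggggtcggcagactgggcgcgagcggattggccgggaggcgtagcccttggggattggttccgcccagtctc
Unc13a, chr8:71671758-71672007, minus strand: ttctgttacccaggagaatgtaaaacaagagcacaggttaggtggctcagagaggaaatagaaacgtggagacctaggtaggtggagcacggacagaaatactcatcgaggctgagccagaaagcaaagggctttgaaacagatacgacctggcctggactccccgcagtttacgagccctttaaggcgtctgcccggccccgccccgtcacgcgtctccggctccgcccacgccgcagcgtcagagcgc
Syt9, chr7:107370540-107370727, plus strand: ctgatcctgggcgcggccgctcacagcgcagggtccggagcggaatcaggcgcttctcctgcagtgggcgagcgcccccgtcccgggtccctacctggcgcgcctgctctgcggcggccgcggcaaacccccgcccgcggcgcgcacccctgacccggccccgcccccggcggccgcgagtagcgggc
Syn1, chrX:20921005-20921168, minus strand: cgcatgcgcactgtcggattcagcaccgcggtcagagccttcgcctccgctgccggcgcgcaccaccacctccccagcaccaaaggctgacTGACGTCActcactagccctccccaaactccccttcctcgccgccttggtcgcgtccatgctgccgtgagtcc
Bsn, chr9:108190385-108190633, minus strand: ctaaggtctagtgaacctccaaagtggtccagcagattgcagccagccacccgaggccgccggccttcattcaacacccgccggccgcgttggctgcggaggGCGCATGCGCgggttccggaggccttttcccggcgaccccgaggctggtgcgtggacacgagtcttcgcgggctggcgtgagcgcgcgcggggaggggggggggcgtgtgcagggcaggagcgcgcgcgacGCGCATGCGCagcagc

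Windows of 300 bases (250 before and 50 after the start) were found for 29 of the 38 genes. The cyclic AMP response element TGACGTCA lay in the window of Syn1 alone among them, against 2.03% of 27025 genes with a window. The core of the NRF1 motif lay in Bsn alone, at 2 places, against 1.07% of genes. The E-box CACGTG was found in Unc13b, Sv2b, Syt6 and Cplx3 (8.09% of genes) and the letters TATAAA in Sv2b and Rab3b (15.7% of genes). Both strands were searched, and a match is a description of letters, not of a bound site. The windows of the 29 genes were richer in G and C than most, with a median of 62.0% against 52.7% over all 32851 windows. Syp and Unc13b shared none of the 4 motifs, and Syt9 and Unc13a held none.

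The release genes span more than 3 orders of level. The FPKM scale divides by 1 length per gene and so allows a rough comparison between genes. On it Cplx2 was the highest in wild type striatum at 434 ± 19 (SD, n = 8), more than 2 times the next. Vamp2, the main vesicle SNARE, stood at 201 ± 4.3, Cplx1 at 199 ± 10 and Snap25, a plasma membrane SNARE, at 188 ± 4.5. Vamp2 and Cplx1 did not differ beyond their spread. Rab3a, the vesicle GTPase, led the group of vesicle membrane and surface proteins, which leaves out SNAREs and synaptotagmins, at 151 ± 5.6. Among synaptotagmins the level was highest for Syt11, a member that does not bind calcium, at 132 ± 2.4, above Syt1, the fast calcium sensor, at 117 ± 6. Within the Unc13 family the order was Unc13c at 36.1 ± 2.5, Unc13a at 33.6 ± 4 and Unc13b at 1.18 ± 0.078, and the first 2 did not differ beyond their spread. At the bottom lay Syn3 (2.004 ± 0.087), Unc13b, Syt17 (0.718 ± 0.11) and Cplx3, the complexin of ribbon synapses, at 0.150 ± 0.053. This order depends on the length used per gene. Exonic bases in the gene models were 22746 for Unc13b, 12623 for Unc13a, 12282 for Syn3, 8338 for Syt1 and 5205 for Syt11.

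**Figure D1:**
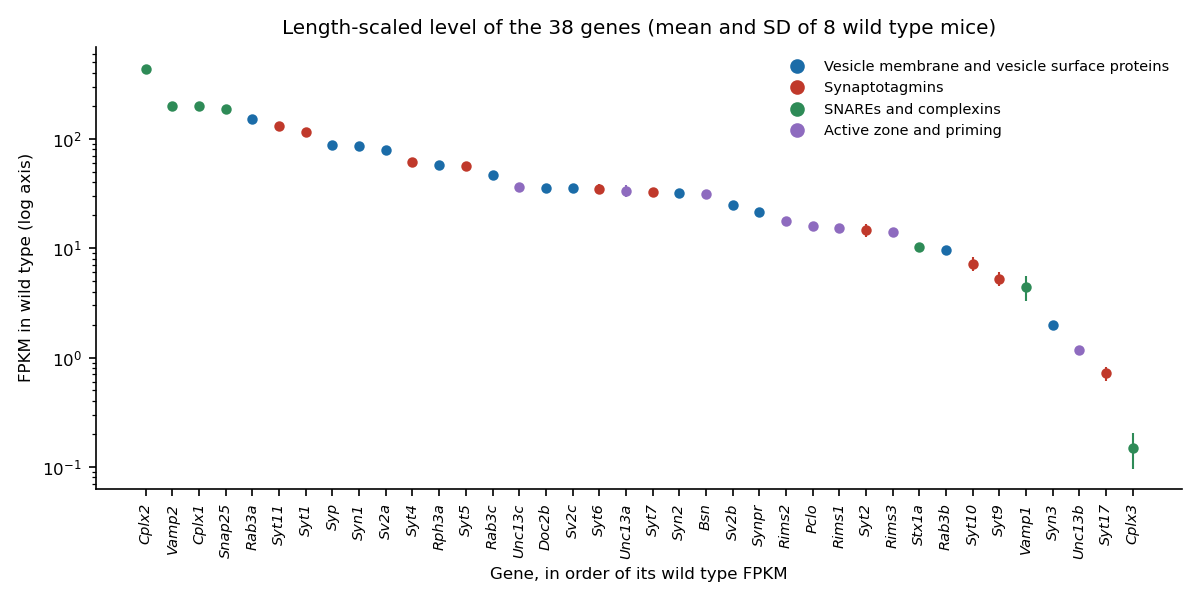
Mean FPKM (log axis) of each of the 38 genes in 8 wild type mice, in order of level and coloured by role, with bars for the SD. Complexins and SNAREs hold the top 4 places and Cplx3 the last.

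The first question the crosses allow is what Q140 does to these genes. With intact Ccdc82, 12 of the 38 genes were higher with Q140, 8 were lower and 18 did not pass, where 34.7% of all genes tested passed (18.2% higher and 16.5% lower). On the Ccdc82+/- background 11 were higher and 11 lower (35.0% of all genes passed), and on the Ccdc82-/- background 13 were higher and 8 lower (33.2% passed). The 3 comparisons share no library, and the difference between backgrounds, tested further on, passed for none of the 38 genes. In all 3, the same 8 genes were higher and the same 7 lower, 39.5% of the 38 against 23.1% of all genes. The 38 genes and their role groups were chosen with earlier results of these data known, so such shares are given as a description. The shares were closer among abundant genes: where log2 CPM averaged 4 or more, they were 42.9% of 35 release genes and 35.0% of 8687 genes. The median log2 fold change of the 38 was -0.0085, 0.0027 and 0.015 in the 3 comparisons, against -0.00051, 0.011 and 0.0069 over all genes, so the middle of the set stayed near that of all genes while its members differed in direction. The split depends on the scaling: with total counts, or with the deposited FPKM, in place of TMM factors, 17 were higher and 7 lower, then 18 and 7, then 19 and 5, since total-count scaling lifts the median of all genes by 0.056, 0.070 and 0.066. Estimates that turn from negative to positive with it are those of Sv2b, Syt1, Syt11 and Snap25 in all 3 comparisons, Sv2c, Rab3c and Rims1 in the first 2, Vamp2 in the first and the last, Pclo in the first, Cplx1 in the second and Vamp1 in the third.

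**Figure D2:**
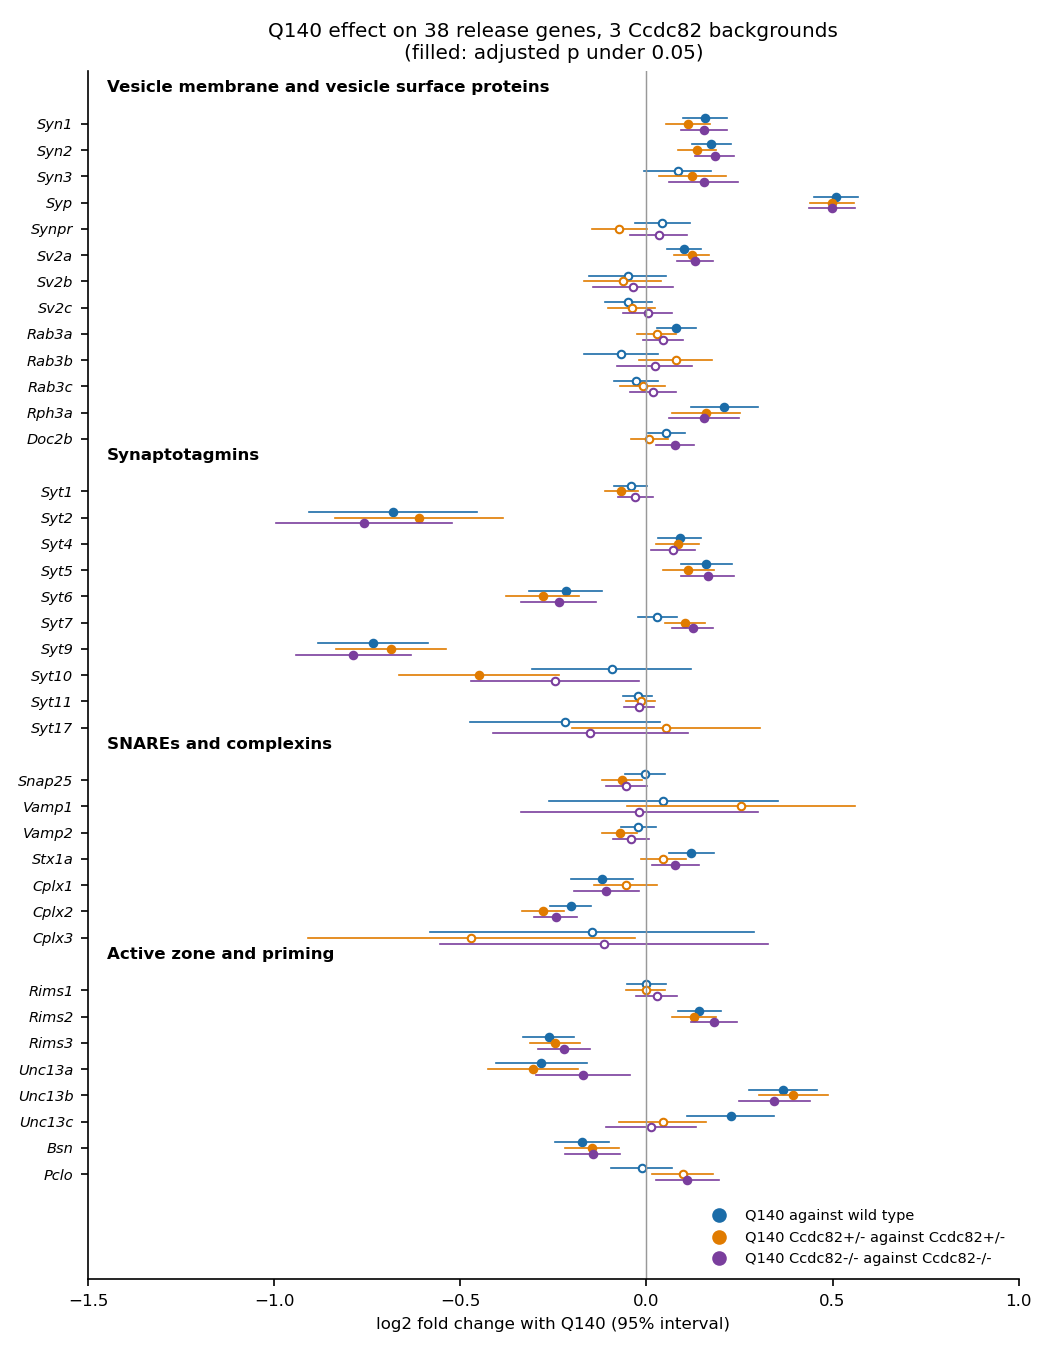
Log2 fold change of each gene with Q140 on 3 Ccdc82 backgrounds, with 95% intervals, grouped by role, and filled points for an adjusted p under 0.05. The 3 estimates of a gene mostly lie close together, with Syp and Unc13b at the right and Syt9 and Syt2 at the left. Points for Sv2b, Sv2c, Rab3c, Syt1, Syt11, Snap25, Vamp1, Vamp2, Cplx1, Rims1 and Pclo change sign with total-count scaling in at least 1 comparison.

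Every gene that passed the test in the vesicle membrane and surface group was higher with Q140. This group leaves out the synaptotagmins and vesicle SNAREs, described further on, some of which fell. Of 13 genes for proteins of the vesicle membrane or surface, 6 rose and none fell with intact Ccdc82, 6 and 0 on the Ccdc82+/- background, and 7 and 0 on the Ccdc82-/- background. Over all genes, 18.2%, 18.4% and 17.5% were higher and 16.5%, 16.7% and 15.7% lower. The median log2 fold changes of the 13 were 0.080, 0.079 and 0.076.

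Syp codes for synaptophysin, an abundant vesicle membrane protein that binds the vesicle SNARE and is used as a marker of terminals. Its lowest, median and highest levels were 447, 460.2 and 492 CPM in wild type, 455, 470.4 and 492.5 in Ccdc82+/- and 445, 465 and 504 in Ccdc82-/- mice. With Q140 they were 635, 662 and 681, 609.9, 673 and 701 and 575, 671 and 697 CPM in the same order of backgrounds. All 23 Q140 libraries lay above all 24 others, where 4.70%, 4.52% and 4.12% of all genes had Q140 libraries entirely above their own controls. The log2 fold change was 0.51 ± 0.029 with intact Ccdc82 (adjusted p = 1.94e-19), 0.50 ± 0.029 on the Ccdc82+/- background (adjusted p = 1.90e-19) and 0.50 ± 0.030 on the Ccdc82-/- background (adjusted p = 9.36e-19). The average over backgrounds was 0.50 ± 0.017 (adjusted p = 1.05e-29), the smallest p among the 38 genes. Synaptoporin, its relative coded by Synpr, gave 0.043, -0.073 and 0.032 and was not called. In Syp, 16.8% of exonic bases are shared with a gene on the opposite strand, Gm14703, which is listed in the same annotation. Whether the counting used strand is not stated in the sources used here.

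The synapsins, which tether vesicles to each other and to actin, rose by less. Syn1 stood at 271, 288 and 322 CPM (lowest, median, highest) in the 24 libraries without Q140 and at 286, 319.8 and 339 in the 23 with it. The groups overlapped, with 9 Q140 libraries above all others, and the average log2 fold change was 0.14 ± 0.017 (adjusted p = 8.60e-10). Syn2 went from 213, 229 and 247 CPM to 241, 255 and 275 CPM, with 17 of 23 Q140 libraries above all others and an average change of 0.16 ± 0.015 (adjusted p = 1.46e-13). Both were called on each background. Syn3, far lower in level, gave 0.084, 0.12 and 0.15, with calls on the Ccdc82+/- and Ccdc82-/- backgrounds, and 14.1% of its exonic bases are shared with Timp3 on the opposite strand.

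Sv2a, a vesicle glycoprotein and the target of the antiseizure drug levetiracetam, was at 349, 378 and 403 CPM without Q140 and 387, 411 and 433 with it, an average change of 0.12 ± 0.013 (adjusted p = 1.76e-10). Of its relatives, Sv2b gave -0.050, -0.064 and -0.035, and Sv2c, the form typical of basal ganglia, -0.049, -0.040 and 0.0031, none of them called. Rph3a codes for rabphilin, which binds Rab3 on vesicles. Its levels ran through 241, 271 and 323 CPM without Q140 and 265, 308 and 361 with it, overlapping widely, with an average change of 0.17 ± 0.026 (adjusted p = 1.99e-07).

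Rab3a was the most abundant gene of the vesicle membrane and surface group by FPKM. It was at 319, 349 and 355 CPM in wild type and 352, 362 and 374 in Q140 mice. It was called there (0.080 ± 0.026, adjusted p = 0.0131) but not on the Ccdc82+/- (0.028) or Ccdc82-/- background (0.045). Rab3b and Rab3c were called in none of the 3, and the average for Rab3c, -0.0068, turns to 0.058 with total-count scaling. Doc2b, a calcium sensor of spontaneous release, was called on the Ccdc82-/- background alone (0.076 ± 0.025, adjusted p = 0.0172).

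Synaptotagmins split in direction. Of 10, 2 rose and 3 fell with intact Ccdc82, 3 and 5 on the Ccdc82+/- background, and 2 and 3 on the Ccdc82-/- background, where 34.7%, 35.0% and 33.2% of all genes passed. The largest falls of all 38 genes by average estimate were in this family. Syt1, Syt2 and Syt9 are its fast calcium sensors.

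Syt9 had lowest, median and highest levels of 17.5, 21.2 and 25.5 CPM in wild type, 18.8, 20.5 and 23.8 in Ccdc82+/- and 18.2, 21.5 and 24.8 in Ccdc82-/- mice. With Q140 these were 10.6, 13.0 and 14.1, 11.7, 13.0 and 13.8 and 10.6, 11.8 and 16.2 CPM. All 23 Q140 libraries lay below all 24 others, where 5.07%, 5.76% and 5.36% of all genes had Q140 libraries entirely below their own controls. The log2 fold change was -0.74 ± 0.073 with intact Ccdc82 (adjusted p = 2.07e-11), -0.69 ± 0.073 on the Ccdc82+/- background (adjusted p = 1.30e-10) and -0.79 ± 0.076 on the Ccdc82-/- background (adjusted p = 9.95e-12).

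Syt2, the sensor known from fast-firing neurons, was more variable. Without Q140 it ran through 94.8, 112 and 145 CPM in wild type, 85.0, 119.7 and 141 in Ccdc82+/- and 101, 118 and 141 in Ccdc82-/- mice. With Q140 the values were 59.5, 72.9 and 84.9, 49.1, 76.3 and 102 and 57.1, 72.9 and 83.5 CPM. Groups overlapped on the Ccdc82+/- background only, and 20 of 23 Q140 libraries lay below all others. The log2 fold change was -0.68 ± 0.11 with intact Ccdc82 (adjusted p = 4.54e-06), -0.61 ± 0.11 on the Ccdc82+/- background (adjusted p = 2.36e-05) and -0.76 ± 0.12 on the Ccdc82-/- background (adjusted p = 1.40e-06). Syt1 was called on the Ccdc82+/- background alone (-0.067 ± 0.022, adjusted p = 0.0143), and that estimate turns to 0.0031 with total-count scaling. In wild type mice the FPKM ratio of Syt2 to Syt1 was 0.125, and in Q140 mice 0.0801.

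Syt6 fell on each background, from 185, 206 and 251 CPM without Q140 to 162, 175 and 198 with it, with an average of -0.24 ± 0.028 (adjusted p = 4.70e-10) and 17 of 23 Q140 libraries below all others. Syt5 rose, from 124, 138 and 150.5 CPM to 139, 153 and 158, an average of 0.15 ± 0.020 (adjusted p = 1.40e-08). Both overlapped between groups in most comparisons. Syt7, a slow sensor of asynchronous release and vesicle replenishment, gave 0.030, 0.10 and 0.12, with calls on the Ccdc82+/- (adjusted p = 0.00136) and Ccdc82-/- backgrounds (adjusted p = 0.000276). Syt4 gave 0.089, 0.084 and 0.072 and missed the threshold only in the last (adjusted p = 0.0558). Syt10 was called on the Ccdc82+/- background alone (-0.45 ± 0.11, adjusted p = 0.000726), and Syt17 in none. Syt11, the most abundant of the family by FPKM, was at 682, 701 and 721 CPM in wild type and 674, 684 and 704 in Q140 mice. By CPM, which is not divided by length, Syt1 was higher (930 to 1063 against 676 to 755 without Q140). Its 3 estimates, -0.023, -0.016 and -0.020, were not called, and with total-count scaling they turn to 0.033, 0.055 and 0.046, the last 2 with calls (adjusted p = 0.00777 and 0.0322).

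Among SNAREs and complexins, Cplx2 alone was called on each background. This complexin, the most abundant of the 38 genes, ran through 2024, 2209 and 2286 CPM in wild type, 2128, 2283 and 2383 in Ccdc82+/- and 2122, 2167 and 2358 in Ccdc82-/- mice. With Q140 it was at 1776, 1879.7 and 2040.3, 1776, 1883 and 1950.3 and 1804, 1855 and 1937 CPM. 22 of 23 Q140 libraries lay below all others, with a narrow overlap in the comparison with wild type. The log2 fold change was -0.20 ± 0.027 with intact Ccdc82 (adjusted p = 3.88e-08), -0.28 ± 0.027 on the Ccdc82+/- background (adjusted p = 7.62e-12) and -0.24 ± 0.028 on the Ccdc82-/- background (adjusted p = 1.00e-09). Cplx1 gave -0.12, -0.056 and -0.11 and was called in the first and the last. With total-count scaling neither call is kept (-0.064, adjusted p = 0.213, and -0.042, adjusted p = 0.454). Of 14 alternatives, 5 end the first call and 10 the last, where the adjusted p ran from 0.0348 to 0.517.

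Estimates for the core fusion SNAREs Snap25 and Vamp2 were small, from -0.072 to -0.0045. Snap25 was at 1235, 1308 and 1344 CPM in wild type and 1249, 1292 and 1374 in Q140 mice, with estimates of -0.0045, -0.065 and -0.054 and a call on the Ccdc82+/- background only (adjusted p = 0.0483). Vamp2 gave -0.022, -0.072 and -0.041, again called on the Ccdc82+/- background only (adjusted p = 0.0135). Of 14 alternatives, 10 end the call of Snap25 (adjusted p from 0.0298 to 0.865) and 5 that of Vamp2 (adjusted p from 0.0049 to 0.970). Averaged over backgrounds both were called lower, Snap25 at -0.041 (adjusted p = 0.0204) and Vamp2 at -0.045 (adjusted p = 0.00486). With total-count scaling these averages turn to 0.023 and 0.019, not called (adjusted p = 0.131 and 0.161). Stx1a, the syntaxin of the plasma membrane, gave 0.12, 0.045 and 0.078, with calls in the first (adjusted p = 0.00116) and the last (adjusted p = 0.0467). The last call is lost in 9 of 14 alternatives, among them RLE size factors (adjusted p = 0.0588), DESeq2 (adjusted p = 0.0579) and females alone, where the estimate was -0.0047 (adjusted p = 0.967). Leaving out Q140 Ccdc82-/- male 2 also ends it (0.068, adjusted p = 0.102), as it does the last call of Cplx1 (-0.083, adjusted p = 0.142). Vamp1 and Cplx3 were not called, and their intervals were wide, from -0.26 to 0.35 and -0.58 to 0.29 with intact Ccdc82.

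Active zone and priming genes split evenly, with 3 of 8 higher and 3 lower with intact Ccdc82, 2 and 3 on the Ccdc82+/- background, and 3 and 3 on the Ccdc82-/- background, against 18.2% higher and 16.5% lower over all genes with intact Ccdc82. Within the Unc13 and Rims families, members moved in opposite directions.

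Unc13b had lowest, median and highest levels of 26.0, 26.6 and 31.0 CPM in wild type, 24.9, 27.7 and 29.8 in Ccdc82+/- and 25.5, 26.7 and 30.6 in Ccdc82-/- mice. With Q140 these were 31.3, 35.0 and 38.3, 32.3, 36.5 and 41.2 and 32.4, 34.1 and 38.4 CPM. All 23 Q140 libraries lay above all 24 others. The log2 fold change was 0.37 ± 0.046 with intact Ccdc82 (adjusted p = 5.43e-09), 0.40 ± 0.045 on the Ccdc82+/- background (adjusted p = 6.10e-10) and 0.34 ± 0.047 on the Ccdc82-/- background (adjusted p = 6.06e-08). Unc13a, the main priming factor of most forebrain synapses, went the other way. It ran through 373, 421 and 565 CPM in wild type, 409.7, 434 and 473 in Ccdc82+/- and 385, 419 and 472 in Ccdc82-/- mice. With Q140 it was at 334, 359 and 363, 317, 355 and 393 and 321, 348 and 478 CPM. Groups did not overlap on the first 2 backgrounds, and overlapped on the third, where 1 of 7 Q140 libraries lay above the control median. The log2 fold change was -0.28 ± 0.060 with intact Ccdc82 (adjusted p = 0.000209), -0.31 ± 0.060 on the Ccdc82+/- background (adjusted p = 6.86e-05) and -0.17 ± 0.062 on the Ccdc82-/- background (adjusted p = 0.0296). In males alone the first call is lost (-0.18, adjusted p = 0.0601). The last call is lost in 8 of 14 alternatives: without Q140 Ccdc82-/- male 2 (-0.15, adjusted p = 0.0686), with plate column as a term (-0.14, adjusted p = 0.114), with no filter on low counts (-0.17, adjusted p = 0.0648), when only the 2 groups are fitted (-0.17, adjusted p = 0.127), with FPKM at either pseudocount (-0.11 in both, adjusted p = 0.121 and 0.123) or total counts (-0.11, adjusted p = 0.144), and in females alone (-0.025, adjusted p = 0.908). The FPKM ratio of Unc13b to Unc13a was 0.0352 in wild type and 0.0549 in Q140 mice, and Unc13a remained the far more abundant of the pair.

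**Figure D3:**
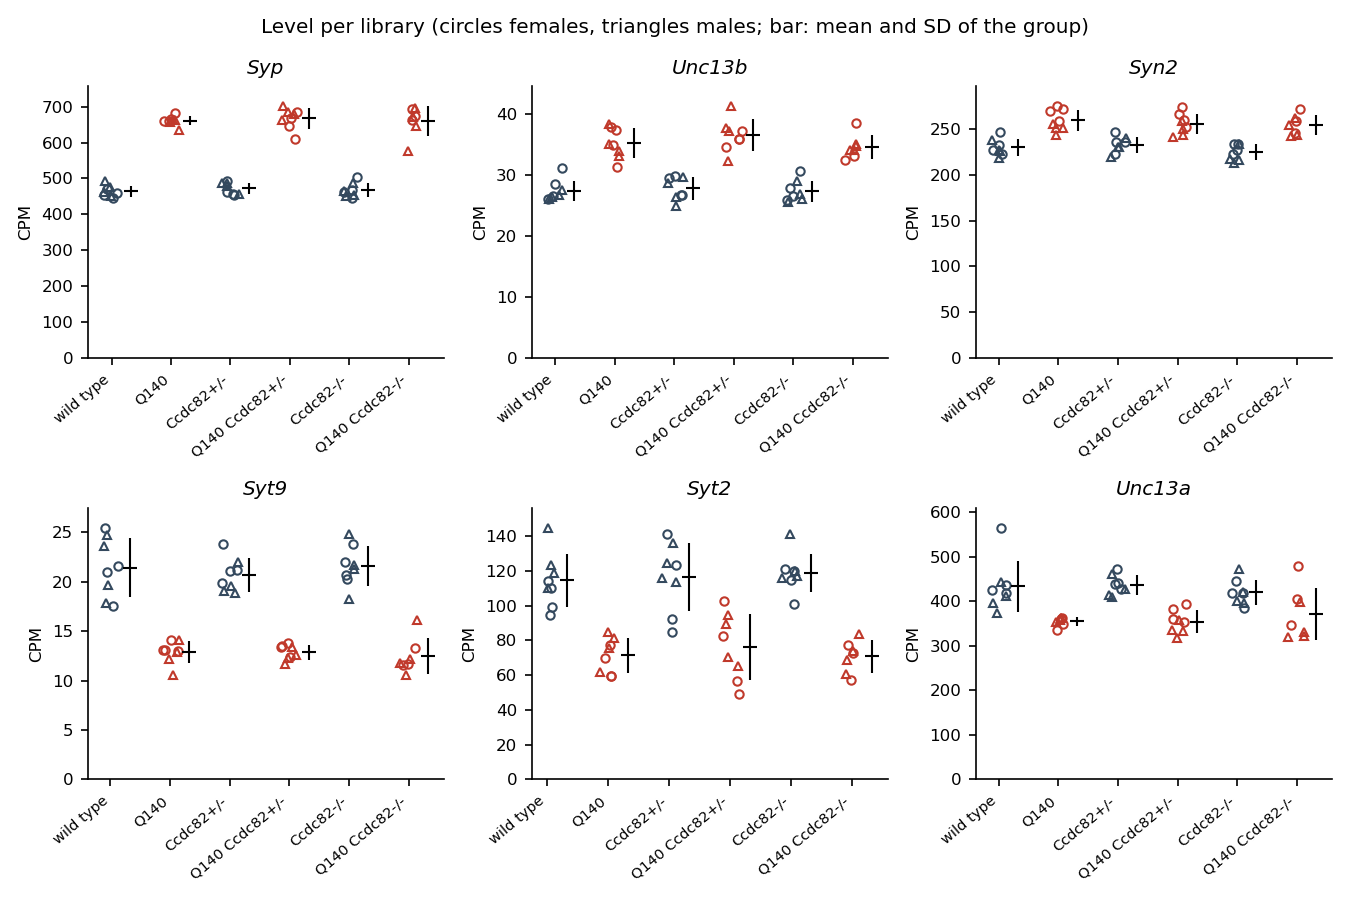
CPM of 6 genes in each of 47 libraries by group, circles for females, triangles for males, red with Q140, and bars for the mean and SD of a group. All red points lie above all dark points for Syp and Unc13b, and below them for Syt9, while Unc13a shows a high wild type female at 565 CPM and a high Q140 Ccdc82-/- mouse at 478 CPM.

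Unc13c was the most abundant active zone gene by FPKM, and it is best known from cerebellar granule cells. It was at 271, 328 and 358 CPM in wild type and 315, 373 and 473 in Q140 mice, and was called there (0.23 ± 0.058, adjusted p = 0.00176). On the Ccdc82+/- and Ccdc82-/- backgrounds the estimates were 0.044 and 0.012, not called. The difference between backgrounds was itself tested: it was -0.18 ± 0.082 for Ccdc82+/- and -0.21 ± 0.083 for Ccdc82-/-, with adjusted p of 0.914 and 0.998, so neither passed.

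RIM proteins link vesicles, priming factors and calcium channels. Rims3, a short form that lacks the parts binding Rab3 and Munc13, fell from 103, 115 and 123 CPM without Q140 to 85.1, 96.4 and 104 with it, an average of -0.24 ± 0.020 (adjusted p = 2.31e-15), and 22 of 23 Q140 libraries lay below all others. Rims2 rose from 82.9, 90.3 and 97.8 CPM to 90.7, 101 and 106, an average of 0.15 ± 0.017 (adjusted p = 1.15e-10), with 18 of 23 above all others. Rims1 gave -0.00055, -0.0023 and 0.028, not called, and with total-count scaling they become 0.056, 0.069 and 0.094, each with a call (adjusted p = 0.0386, 0.0101 and 0.00084). The FPKM ratio of Rims3 to Rims2 went from 0.792 in wild type to 0.598 in Q140 mice. On the other 2 backgrounds it went from 0.796 to 0.614 and from 0.811 to 0.616.

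Bassoon and piccolo are giant scaffolds of the active zone. Bsn fell from 424, 498 and 548 CPM to 406, 446 and 487, an average of -0.15 ± 0.021 (adjusted p = 9.72e-09), with all 23 Q140 libraries below the control median. Its calls on the Ccdc82+/- and Ccdc82-/- backgrounds are lost with total counts (adjusted p = 0.0561 and 0.0606) and with FPKM (-0.075, adjusted p = 0.0742, and -0.075, adjusted p = 0.0876). Pclo gave -0.013, 0.098 and 0.11, called in the last alone (adjusted p = 0.0375), where the Ccdc82-/- group holds 1 library at 285 CPM.

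Averaged over backgrounds, which narrows the SE, 16 of the 38 were higher and 12 lower, where 54.3% of all genes passed. By role these were 8 and 0 of 13 vesicle membrane and surface genes and 3 and 5 of 10 synaptotagmins. They were 1 and 4 of 7 SNAREs and complexins, and 4 and 3 of 8 active zone genes. With total-count scaling the numbers over all 38 were 21 and 8.

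Genes that work beside these in the release cycle, listed by textbook role, also moved in both directions. Of 95 listed genes, 92 were tested, and 29 were higher and 18 lower with intact Ccdc82, with 35 and 21 for the average. That is 51.1% and 60.9% of the 92, against 34.7% and 54.3% of all genes tested. These shares are not matched for level. Calls in all 3 Q140 comparisons were more frequent among genes of log2 CPM 4 or more (35.0%) than among all genes (23.1%). Among 38 fusion and vesicle genes, 11 rose and 10 fell on average (55.3%, near the 54.3% of all genes). Napa, the adaptor through which spent SNARE complexes are taken apart, fell (-0.25 ± 0.016, adjusted p = 1.29e-18), as did Syt12 (-0.29 ± 0.020) and Syt16 (-0.24 ± 0.022), while the SNARE Snap47 rose (0.16 ± 0.016). Of 14 further active zone genes, 8 rose and 2 fell (71.4% called). Ppfia2, a liprin that organises active zones, rose (0.31 ± 0.018, adjusted p = 8.68e-21), Erc1 (0.13 ± 0.020) and Rimbp2 (0.16 ± 0.025) rose, and the scaffold gene Lin7b fell (-0.35 ± 0.028, adjusted p = 2.71e-15).

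Of 26 endocytosis genes, 11 rose and 8 fell on average, where 28.8% of all genes rose and 25.5% fell. Dnajc6, which codes for auxilin, the factor that strips clathrin from vesicles, rose (0.19 ± 0.012, adjusted p = 2.76e-19), with Synj1 (0.13 ± 0.012) and Ap2s1 (0.10 ± 0.015), and the dynamin partner Pacsin1 fell (-0.20 ± 0.017, adjusted p = 2.72e-14). Of 14 genes for transmitter loading, 5 rose and 1 fell (42.9% called, against 54.3% of all genes). Most of this list are subunits of the proton pump that acidifies vesicles. The 4 with the smallest p were all such subunits: Atp6v1a (0.23 ± 0.013), Atp6v0c (0.15 ± 0.014), Atp6v1b2 (0.13 ± 0.013) and Atp6v1g2 (0.12 ± 0.016).

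The other question is whether the Ccdc82 mutation changes release genes, alone or under Q140. None of the 38 was called for Ccdc82+/- or Ccdc82-/- against wild type, or for Q140 Ccdc82+/- or Q140 Ccdc82-/- against Q140, where 0.00521% of all genes (1 of 19193) were called in each. DESeq2 called none either. At an unadjusted p under 0.05 there were 0, 2, 4 and 2 of the 38 in that order, and the smallest were Pclo for Ccdc82-/- against wild type (-0.12 ± 0.040, adjusted p = 1 by edgeR) and Syt7 for Q140 Ccdc82+/- against Q140 (0.076 ± 0.026, adjusted p = 0.858).

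**Figure D4:**
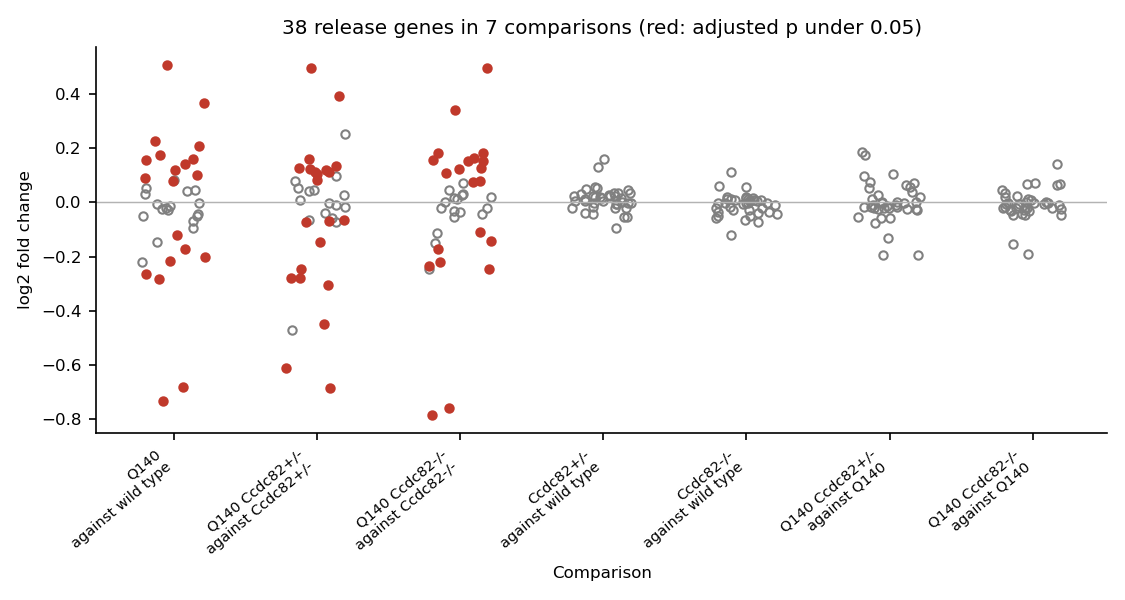
Log2 fold changes of the 38 genes in 3 Q140 comparisons and 4 Ccdc82 comparisons, red where the adjusted p was under 0.05. The Q140 columns spread from about -0.79 to 0.51, and the Ccdc82 columns hold no red point and stay within 0.2 of 0. Q140 and Ccdc82 columns share libraries.

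These comparisons were precise for most genes. The 95% interval of the difference lay wholly within 0.2 of 0 on the log2 scale for 33, 32, 31 and 32 of the 38 genes. Syp, which rose with Q140 by an average of 0.50, had intervals of -0.034 to 0.084 for Ccdc82+/- and -0.049 to 0.068 for Ccdc82-/- against wild type, and -0.045 to 0.072 and -0.063 to 0.059 for the same alleles under Q140. For Syt9 they were -0.20 to 0.091, -0.13 to 0.16, -0.15 to 0.15 and -0.20 to 0.11. Cplx3, with the fewest counts, had the widest interval in each. Missing the threshold does not show that the levels are alike.

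The Q140 effect was not called different between Ccdc82 backgrounds for any of the 38 genes by edgeR (0.00% of all genes called for either interaction), nor by DESeq2. At an unadjusted p under 0.05 there were 4 for Ccdc82+/- (Syt10, Synpr, Unc13c and Rab3b) and 3 for Ccdc82-/- (Unc13c, Syt7 and Pclo). For Syp the interaction was -0.012 ± 0.041 and -0.012 ± 0.042, with intervals of -0.095 to 0.071 and -0.096 to 0.073. Nor was the Q140 effect called different between females and males, averaged or with intact Ccdc82 (0.00% of all genes in both). Rims2 alone had an unadjusted p under 0.05, with a larger rise in females by 0.064 ± 0.031 (adjusted p = 1 by edgeR).

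Some release genes varied between libraries of 1 group in step with markers of other cells. After removing group and sex means, correlations were computed over 47 libraries between each of the 38 genes and 13 marker lists, 494 in all. Those named below are a selection, and more of the 494 passed. Vamp1, a vesicle SNARE of brainstem and spinal neurons, went with 7 genes marking thalamic or pallidal neurons, whose nuclei lie near the striatum (Pearson's r = 0.84, Spearman's rho = 0.74, permutation p = 1e-05, the smallest that 100000 permutations can give, adjusted p = 0.000449). Without the 2 libraries farthest on the marker axis r was 0.80. With libraries split at the mean of the marker axis, r was 0.87 above it (21 libraries) and 0.041 below it (26 libraries), so the relation rests on libraries where those markers were high. Within the 6 plate columns of 7 or 8 libraries r lay between 0.74 and 0.95.

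Syt2 showed r = 0.57 (rho = 0.47, permutation p = 5e-05, adjusted p = 0.0013) with the same list, 0.56 without the farthest 2, and 0.36 and 0.076 above and below the mean. Between plate columns it ranged from 0.20 to 0.85. Across the 47 libraries the deviations of Vamp1 and Syt2 had r = 0.72, given as a description, since both come from the same libraries. Of the 7 markers tested, 1, 0 and 1 were higher with Q140 and none lower on the 3 backgrounds. Over all genes 34.7%, 35.0% and 33.2% passed. The summed level of the list was 104 to 125 CPM without Q140 and 109 to 128 with it. Slc17a6 and Npas1 of the list were close to 0. Rora and Lhx6, its highest genes, are also made by striatal cells. They averaged 67.3 and 23.5 CPM and so hold most of that sum. The part of such tissue in the fall of Syt2 was not tested.

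**Figure D5:**
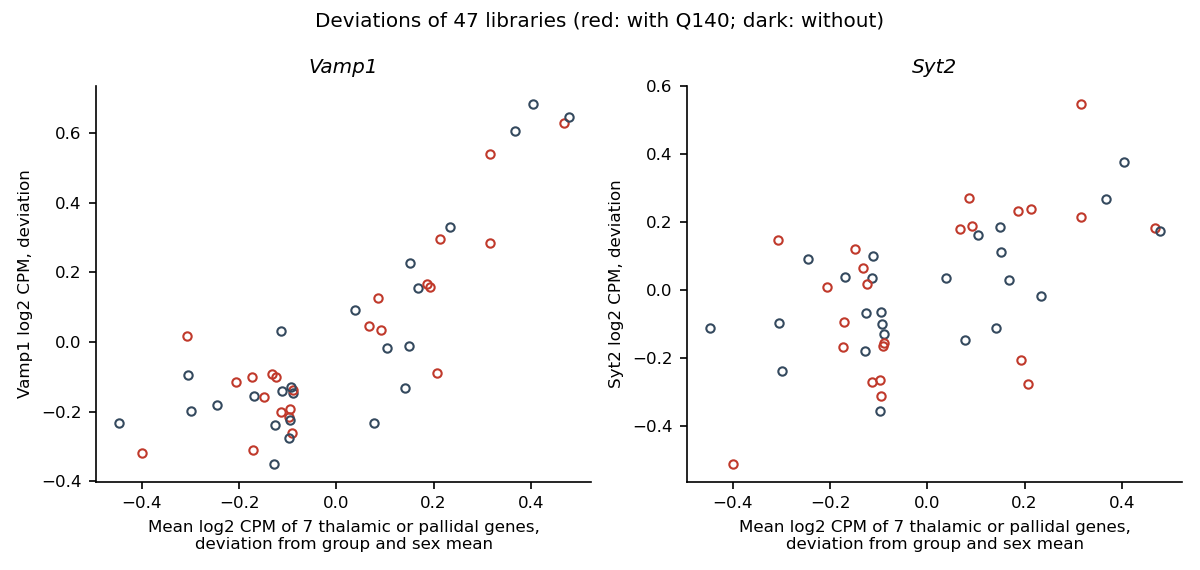
Deviation of Vamp1 (left) and Syt2 (right) from group and sex means, in log2 CPM, against the mean deviation of 7 thalamic or pallidal genes in 47 libraries. Vamp1 climbs on the right side of the axis (r = 0.87 over 21 libraries) and is flat on the left (r = 0.041 over 26).

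Other genes went against the astrocyte list of 10 genes. Sv2b had r = -0.79 (rho = -0.82, permutation p = 1e-05, adjusted p = 0.000449) and -0.76 without the 2 farthest libraries. Syt5 had r = -0.73 (rho = -0.70, adjusted p = 0.000449) and Syn2 r = -0.62 (rho = -0.63, adjusted p = 0.000449). The astrocyte list stood somewhat lower with Q140, at 3682 to 4113 against 4023 to 4635 summed CPM. Syt5 and Syn2 rose with Q140, while Sv2b, with the strongest r, did not (-0.050, -0.064 and -0.035, none called). The part of the astrocyte list in the Q140 estimates of these genes was not tested. Among the genes themselves the closest pairs were Syt11 with Snap25 (r = 0.82), Rph3a with Rims1 (r = 0.79), and Rab3a with Snap25 (r = 0.75), as descriptions over libraries that share depth and tissue.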

How the data were processed

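The authors deposited, per the file headers and the labels, a table of raw counts per gene and a table of FPKM for 48795 genes in 47 striatal libraries. The submitters' processing notes name STAR 2.7.5c, SAMtools 1.10, HTSeq 0.12.3 and GRCm38. The deposited FPKM equal counts divided by the total and by 1 length per gene, so they carry total-count scaling. Each library was assigned by its title, and no libraries were identical. Counts were filtered with filterByExpr over the 6 groups (19193 genes kept of 33998 with a count), scaled by TMM and fitted with group and sex in edgeR 4.0.16 under R 4.3.3 (glmQLFit, robust; 40 residual degrees of freedom), with Benjamini-Hochberg adjustment over all genes and a threshold of 0.05. Scripts were tested on simulated data.

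The 38 genes, the role groups, the other release genes and the marker lists were chosen with earlier results of these data known. Genes were described in full where they passed in the same direction in all 3 Q140 comparisons, passed in any Ccdc82, interaction or sex comparison, or had the highest FPKM of their role group. At most 4 genes were named from each list of other release genes, by the smallest p for the average Q140 effect. Correlations with marker lists were planned as a description with no p. Their permutation p values were not in that plan, and treat deviations from group and sex means as exchangeable. The 14 alternatives were RLE size factors, no filter, DESeq2 1.42.0, no sex term, a replicate block, plate column, only the groups compared, females or males alone, no libraries high in choroid plexus genes, limma 3.58.1 on log2(FPKM + 0.1) or log2(FPKM + 1), and, chosen after seeing the data, total counts in place of TMM and leaving out Q140 Ccdc82-/- male 2. Fold changes from FPKM are on the log2(value + pseudocount) scale. At 41327333 to 61701245 counts a library, counting error was below the spread between libraries for each of the 38 genes. Gene models are GENCODE M21 and promoter windows RefSeq, both on GRCm38.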

Additional observations from a re-analysis of the deposited data

Results flagged for a closer look

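In 17 of 228 sets of a gene and a group, 1 library stood apart from the rest of its group by Dixon's test, where chance gives about 1 in 20. They involve 14 of the 38 genes and 11 libraries. Q140 Ccdc82-/- male 2 was low in 3 abundant genes: Syp at 575 CPM (the nearest other library was at 647), Sv2a at 387 (408) and Snap25 at 1197 (1256). Its Syp level still lay above all libraries without Q140. Wild type female 1 was high in Unc13a at 565 CPM (444) and in Doc2b at 176 (163). Wild type female 4 was low in Syn3 at 22.3 CPM (24.9) and in Sv2a at 349 (373). Ccdc82-/- female 2 was low in Pclo at 285 CPM (337) and high in Cplx1 at 506 (458). Ccdc82+/- female 4 was high in Syt11 at 755 CPM (704) and in Vamp1 at 70.4 (49.7), and Ccdc82-/- male 4 was high in Vamp1 at 71.7 (52.6). Ccdc82+/- female 3 was high in Synpr at 214 CPM (191) and Q140 male 3 in Rab3b at 38.6 (34.1). Q140 male 4 was low in Rims2 at 90.7 CPM (99.0). Q140 Ccdc82+/- female 2 was high in Doc2b at 175 CPM (166) and Q140 Ccdc82-/- female 2 in Unc13b at 38.4 (35.0).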

How the results depend on the processing

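Of the 15 genes called on all 3 backgrounds, none changed direction under any alternative. With total counts in place of TMM, and with FPKM at a pseudocount of 0.1 or 1, the median log2 fold change of the 38 genes was 0.048, 0.047 and 0.046 with intact Ccdc82, 0.073, 0.073 and 0.062 on the Ccdc82+/- background, 0.081, 0.082 and 0.079 on the Ccdc82-/- background, and 0.069, 0.069 and 0.065 on average. Each of these 3 fits then gave 7 lower and 18 higher genes for Ccdc82+/-, and 5 lower for Ccdc82-/-. Total counts turned the sign of 9, 8, 6 and 7 of the 38 estimates in these 4 comparisons, most of them uncalled in both fits. In the same order of fits, those that changed sign and were called before or after were Rims1 at 0.056, 0.056 and 0.053 with intact Ccdc82, and, on the Ccdc82+/- background, Rims1 at 0.069, 0.068 and 0.065, Syt1 at 0.0031, 0.0033 and 0.0033, Syt11 at 0.055, 0.055 and 0.055, and Snap25 at 0.0058, 0.0062 and 0.0061. On the Ccdc82-/- background Syt11 was at 0.046, 0.046 and 0.046. The averages of this kind were Rab3c at 0.058, 0.058 and 0.057, Syt1 at 0.017, 0.018 and 0.018, Syt11 at 0.045, 0.045 and 0.045, Snap25 at 0.023, 0.023 and 0.023, and Vamp2 at 0.019, 0.019 and 0.019.

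Fitted by sex, with fewer libraries, males alone gave 4 lower genes with intact Ccdc82. Females alone gave 6 higher on the Ccdc82+/- background, 7 higher and 4 lower on the Ccdc82-/- background, and Stx1a there at -0.0047. The replicate numbers gave no sign of pairing the libraries. Of 115 pairs with the same number in other groups, 24 had a correlation of deviations above 0.1 (median -0.013). Of 805 pairs with other numbers, 248 did (median 0.0025). Among the 47 libraries, 7 correlated best with their own number. With the replicate block, 8 genes were lower and 12 higher with intact Ccdc82, 10 and 12 for Ccdc82+/-, and 7 and 13 for Ccdc82-/-. With plate column these were 8 and 12, 9 and 9, and 6 and 13. No alternative called any of the 38 genes in a Ccdc82 comparison or an interaction. Depth limits Cplx3 and Syt17 most.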
